A study of Mus musculus with 6 samples.

Results

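The 8 genes of plasminogen activation and blood coagulation described here are Plau, Plat, Plaur, Serpinb2, Serpine2, F3, Tfpi2 and Thbd. They were taken by gene name from the probe spots of 6 arrays. All 8 genes were found, each with 1 probe and 1 spot per array, among 20868 probes, and 7 of the 8 passed the filter on dim probes that left 19719 probes of 18297 named genes. The arrays held RNA of mouse HACA cells, a line the labels do not describe further and for which they give no treatment, time or clone. Cells carried a short hairpin RNA against Loxl2 (shLoxl2), a lysyl oxidase-like enzyme, or against Snail (shSnail), the zinc-finger repressor encoded by Snai1. Control cells carried a hairpin against GFP (shGFP), so every group carried a hairpin. Each array paired silenced RNA with shGFP RNA in 2 colours. There were 4 shLoxl2 arrays, with replicates 1 and 2 each labelled in Cy3 and again in Cy5, and 2 shSnail arrays with the silenced RNA in Cy5 on both, so n = 2 in each silenced group.

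Plasminogen activators cleave plasminogen to plasmin, a protease that dissolves fibrin and other matrix. Plau (urokinase) acts at the cell surface through its receptor Plaur, Plat is the tissue-type activator, and serpins such as Serpinb2 and Serpine2 inhibit the activators. Coagulation starts when tissue factor, encoded by F3, binds factor VII, and it ends in the thrombin that makes fibrin. Thrombomodulin, encoded by Thbd, turns thrombin towards activation of protein C, and Tfpi2 is a Kunitz-type inhibitor that acts on plasmin and on the tissue factor complex. In epidermal keratinocytes and tumour cells several of these proteins are known at the cell surface and in the pericellular matrix.

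The share of probe spots well above background ran from 85.4% to 92.4% in red (Cy5) and from 55.9% to 74.9% in green (Cy3), and precision is limited by having few arrays. Some probes favour a dye; this dye effect, read from the dye-swapped pairs as what stayed when the dyes were exchanged, had a log2 SD of 0.46 across probes. It was removed from the shSnail values using the shLoxl2 arrays. The Loxl2 probe was at a log2 fold change of 0.11 in shLoxl2 (limma adjusted p = 0.590). It was well above background in shLoxl2 RNA on 2 of the 4 shLoxl2 arrays and in shGFP RNA on 1. The Snai1 probe was dim in both channels of both shSnail arrays. Neither probe checked the labels, so all directions rest on the labels. All shLoxl2 arrays were scanned on 1 day and both shSnail arrays on another, so scan day and group cannot be told apart in shSnail against shLoxl2. Labels do not say whether replicates were separate cultures, so p-values may measure technical spread only. The shGFP RNA counted as 1 control sample whose own spread is left out.

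Members were lower or did not pass; 0 of 7 tested members passed as higher in any comparison. Against shGFP, 3 of the 7 fell in shLoxl2 cells (Serpinb2, F3 and Thbd) and 5 fell in shSnail cells (Serpinb2, F3, Thbd, Plat and, with the dye effect removed in full, Plau), by limma with Benjamini-Hochberg adjustment over all 19719 probes at 0.05. Of all probes tested, 13.8% were called in shLoxl2 (5.83% as lower) and 21.3% in shSnail (12.5% as lower). The median log2 fold change of the 7 genes was -1.14 in shLoxl2 and -1.06 in shSnail, against medians of -0.01 and -0.04 over all probes. Directly between the silenced cells, 3 of 7 were lower in shSnail than in shLoxl2 (Serpinb2, Thbd and Plau), where 12.8% of probes were called and 8.53% were lower, with a median of -0.58 against -0.04 over all probes. At an unadjusted p below 0.05, 0 members were higher in shLoxl2 and 0 in shSnail, and 1, F3, was higher in shSnail than in shLoxl2. Both comparisons against shGFP share the control RNA, so their values stand side by side and are not independent. The members were chosen with earlier results of these data known, so setting their counts and medians beside all probes is not a test. In cultured cells, fewer cells of a kind and less RNA per cell cannot be told apart.

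**Figure D1:**
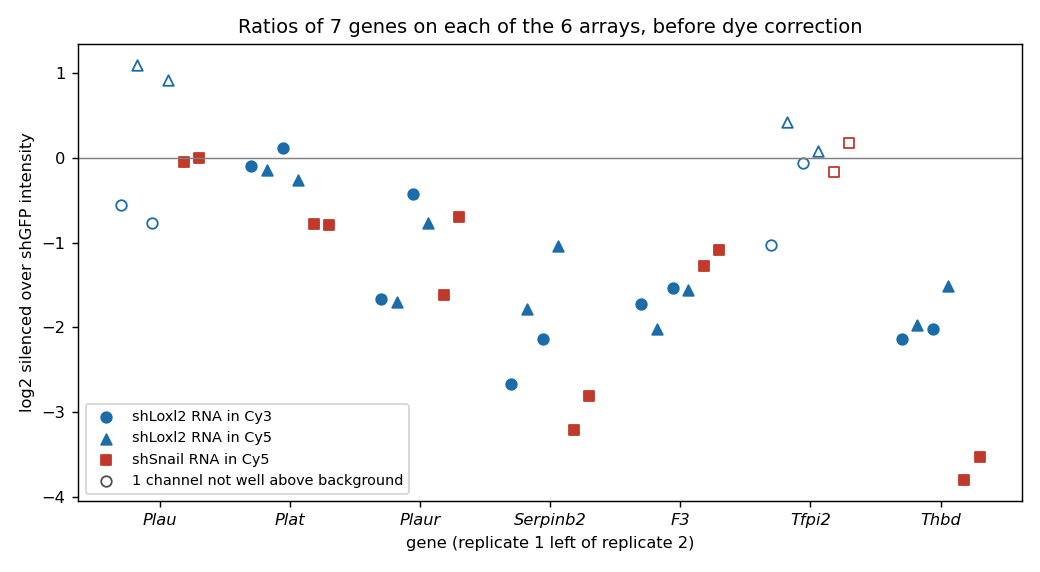
Log2 ratio of silenced to shGFP intensity (vertical axis) for the 7 tested genes on each of the 6 arrays, before dye correction; circles are shLoxl2 arrays with the silenced RNA in Cy3, triangles shLoxl2 arrays in Cy5 and squares shSnail arrays in Cy5, with open symbols where 1 channel was not well above background. Serpinb2, F3 and Thbd lie below -1 on all 6 arrays, and Plau changes sign with the dye on the shLoxl2 arrays.

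Upstream sequence is shown for Serpinb2 and F3, which fell with both hairpins, and for Plaur, whose ratios were below 0 on every array without passing; F3 and Plaur hold motifs that Serpinb2 lacks. RefSeq promoters (GRCm38.p6, 250 bases before the start site and 50 after) were given for 5 of the 8 members, namely Plaur, Serpine2, Serpinb2, F3 and Tfpi2. The 250 upstream bases are printed 5′ to 3′ on the strand of the gene: Serpinb2 at chr1:107511173-107511422 (plus strand, the first of 2 start sites listed), F3 at chr3:121723287-121723536 (plus strand) and Plaur at chr7:24462233-24462482 (plus strand). Capitals mark matches to the AP-1 motif TGAGTCA or the GC box GGGCGG on either strand.
Serpinb2: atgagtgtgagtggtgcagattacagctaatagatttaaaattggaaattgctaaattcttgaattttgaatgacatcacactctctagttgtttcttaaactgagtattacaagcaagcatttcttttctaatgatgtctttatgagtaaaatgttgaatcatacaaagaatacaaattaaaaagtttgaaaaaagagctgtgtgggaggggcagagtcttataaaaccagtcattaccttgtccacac
F3: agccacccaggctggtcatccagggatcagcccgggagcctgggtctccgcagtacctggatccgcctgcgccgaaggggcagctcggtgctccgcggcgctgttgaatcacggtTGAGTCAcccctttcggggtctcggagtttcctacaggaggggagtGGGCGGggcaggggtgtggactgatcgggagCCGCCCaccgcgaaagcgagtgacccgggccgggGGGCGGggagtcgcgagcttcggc
Plaur: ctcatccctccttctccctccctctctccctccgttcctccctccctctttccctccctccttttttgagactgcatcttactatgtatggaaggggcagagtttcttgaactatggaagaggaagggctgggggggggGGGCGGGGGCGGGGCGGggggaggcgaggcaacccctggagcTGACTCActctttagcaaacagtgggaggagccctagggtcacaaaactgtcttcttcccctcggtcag

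F3 held 1 AP-1 motif, starting 135 bases before its start site, and Plaur held 1 on the other strand, starting 69 bases before it. Serpinb2, Serpine2 and Tfpi2 held 0 in any listed window. Over all 32851 promoters of this length, 5.20% held the AP-1 motif. GC boxes numbered 3 in F3, 3 in Plaur, where neighbouring matches overlap, 6 in Serpine2, 2 in 1 Tfpi2 window and 0 in the others, and 0 in both Serpinb2 windows, and 35.7% of all promoters held at least 1. The E-box CAGGTG, the sequence known to be bound by Snail-family repressors, was in 20.2% of all promoters and in none of the F3, Plaur, Serpinb2 or Serpine2 windows; 2 of 3 Tfpi2 windows, which overlap, held 1. A match describes letters only, and says nothing on whether a factor was bound.

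The activators were examined first. Urokinase, Plau (probe at chr14:19629185-19629551, mm8, plus strand), was a dim spot. With shLoxl2 RNA in Cy3 its log2 ratio to shGFP was -0.56 for replicate 1 and -0.76 for replicate 2, and with the RNA in Cy5 it was 1.102 and 0.93. The sign thus followed the dye, and the green channel of this spot was not well above background on any of these 4 arrays. Averaged over the dye swap, Plau was at 0.27 for replicate 1 and 0.08 for replicate 2, and the fitted log2 value of 0.18 did not pass (SE 0.11, limma adjusted p = 0.364). Its direction in shLoxl2 was not settled, since 5 of 14 alternative settings turned the sign.

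On the shSnail arrays, where both channels of the Plau spot were well above background, the ratio was -0.05 for replicate 1 and -0.0044 for replicate 2 before dye correction. Plau had a dye effect of 0.84, among the 7 genes the highest. Once that was removed, Plau was at -0.89 and -0.84 and passed as lower in shSnail (log2 fold change -0.86, SE 0.14, limma adjusted p = 0.00795), a 1.82-fold difference. The call rests on the dye correction: with the effect scaled by 0.453, the slope with which the shSnail ratios followed it over all probes, the value was -0.41 (limma adjusted p = 0.0502), and with no correction it was -0.03 (limma adjusted p = 0.861). Without shSnail replicate 1 the limma adjusted p was 0.0587. Among arrays of 1 dye orientation, Plau was lower in shSnail than in shLoxl2 by a log2 difference of -1.04 (SE 0.16, limma adjusted p = 0.0232). The shGFP channel was not well above background on either shLoxl2 array of this comparison, so the size of the difference rests on a background signal. That difference was -0.23 without background subtraction and -0.12 with median centring in place of loess, and it passed under neither, nor with the dye effect scaled (-0.58, limma adjusted p = 0.0695). It did not pass without shSnail replicate 1 (limma adjusted p = 0.168) or replicate 2 (0.143), at -1.02 and -1.07.

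Plat, the tissue-type activator (chr8:24248165-24248225, mm8, plus strand), was well above background in both channels of all 6 arrays. In shLoxl2 its ratios were -0.09 and 0.11 in Cy3 and -0.15 and -0.26 in Cy5, close to 0 on every array (log2 fold change -0.10, SE 0.10, limma adjusted p = 0.596, 95% interval -0.35 to 0.16). In shSnail both arrays lay lower, at -0.78 and -0.79, and below all 4 shLoxl2 arrays. Its dye effect was small (-0.11), and the dye-corrected log2 fold change was -0.67 (SE 0.14, limma adjusted p = 0.0166), 1.60-fold lower than shGFP. Leaving out shSnail replicate 1 or 2 kept the size (-0.68 and -0.67) and ended the call (limma adjusted p = 0.0936 and 0.0855). The difference of shSnail from shLoxl2 was -0.58 (95% interval -0.97 to -0.19) and did not pass (limma adjusted p = 0.0675). It passed in 3 of 14 other settings: without background subtraction (-0.45, limma adjusted p = 0.0268), with median centring (-1.13, limma adjusted p = 0.00430) and under the scaled dye effect (-0.64, limma adjusted p = 0.0470).

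Plaur, the urokinase receptor (chr7:24183076-24184017, mm8, plus strand), separated by replicate number rather than by hairpin. The 3 arrays of replicate 1 read -1.66 (shLoxl2 in Cy3), -1.70 (shLoxl2 in Cy5) and -1.62 (shSnail). The 3 arrays of replicate 2 read -0.42, -0.77 and -0.70 in the same order. All 6 ratios were below 0, the numbers did not overlap, and the hairpins did. Before normalization, Plaur intensity for shGFP RNA was 13152 in replicate 1 and 6652 in replicate 2 on the arrays with shLoxl2 in Cy3, 6050 and 5780 on those with shLoxl2 in Cy5, and 4394 and 2568 on the shSnail arrays. For the silenced RNA it was 2403 and 2093, then 4593 and 5184, then 1924 and 1987 in the same order. Whether a number marks a shared culture or labelling is not in the labels, and its part in the Plaur values was not tested.

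With that spread Plaur did not pass in shLoxl2 (log2 fold change -1.14, SE 0.31, limma adjusted p = 0.0697) or in shSnail (-1.06, SE 0.41, limma adjusted p = 0.118). As an alternative it passed as lower in 5 of 14 settings in shLoxl2, with limma adjusted p from 0.00572 (shLoxl2 averages alone) to 0.0331 (without replicate 2), and in shSnail without dye correction (-1.16, limma adjusted p = 0.0380) and with median centring (-1.55, limma adjusted p = 0.00476). The silenced cells differed by 0.08 with a 95% interval from -1.02 to 1.18 (limma adjusted p = 0.916), an interval wider than 1 log2 unit on each side of 0.

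Serpinb2, plasminogen activator inhibitor type 2 (chr1:109352982-109353041, mm8, plus strand), was below shGFP on every array. In shLoxl2 its ratios were -2.67 and -2.13 in Cy3 and -1.78 and -1.04 in Cy5. Both Cy3 arrays lay below both Cy5 arrays, and its dye effect was 0.50. After the swap was averaged, Serpinb2 was at -2.22 in replicate 1 and -1.58 in replicate 2, a fitted log2 fold change of -1.90 (SE 0.19, limma adjusted p = 0.00396), or 3.74-fold lower. In shSnail the ratios were -3.21 and -2.81, below all 4 shLoxl2 arrays. The dye-corrected log2 fold change there was -3.51 (SE 0.24, limma adjusted p = 0.00128), or 11.4-fold lower, rank 8 from the lowest of 19719 probes. Without dye correction the value was -3.01 and also passed.

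The Serpinb2 spots were bright, so its values are far from background. Mean intensity in shSnail was 2037 on replicate 1 against 12396 for shGFP on the same array, and 2523 against 11993 on replicate 2. Red and green scales differ, so these pairs show the order within an array and not the fold. Serpinb2 was lower in shSnail than in shLoxl2 by -1.60 (SE 0.30, limma adjusted p = 0.0335), or 3.04-fold. That call was lost when either shSnail replicate was left out (limma adjusted p = 0.155 without replicate 1 and 0.108 without replicate 2), with the value at -1.41 and -1.80, with log ratios as the scanning software gave them (-1.56), with these centred (-1.41, limma adjusted p = 0.112) and with an offset of 10 (-1.63, limma adjusted p = 0.0649).

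**Figure D2:**
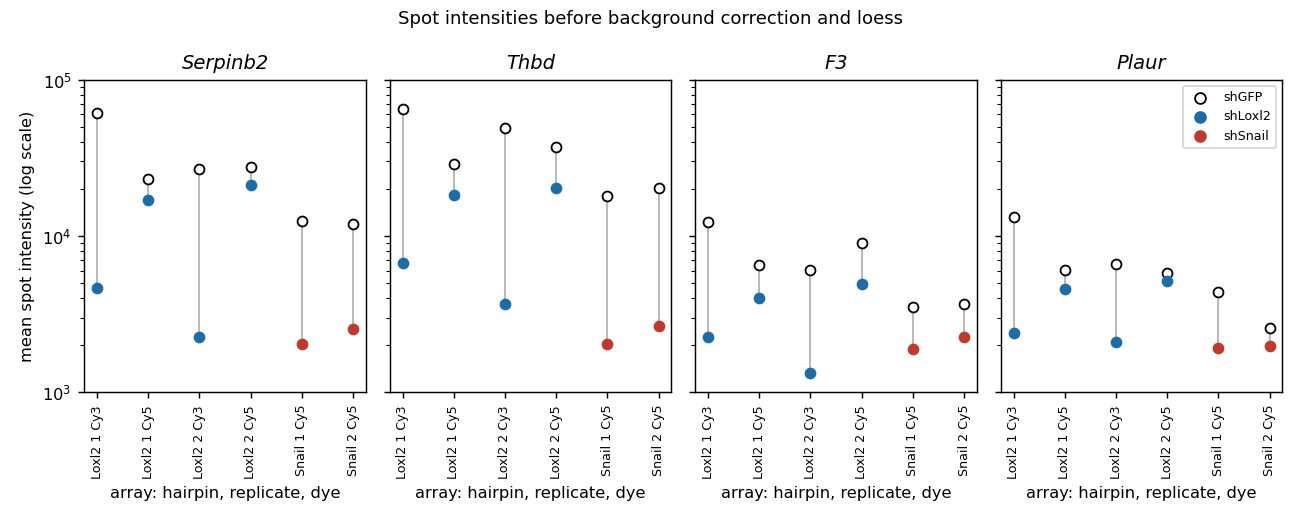
Mean spot intensity on a log scale, before background correction, for Serpinb2, Thbd, F3 and Plaur on the 6 arrays; open circles are shGFP, blue circles shLoxl2 and red circles shSnail, joined within an array. The silenced channel lies under the shGFP channel on all 6 arrays for each of the 4 genes, with the gap depending on which dye held which RNA.

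The other inhibitor, Serpine2 (protease nexin-1, chr1:79675925-79678542, mm8, minus strand), did not rise well above background on any of the 6 arrays, whichever channel was read. Its red intensities ran from 88.1 to 100.6, against red medians of 78.0 to 87.5 for negative control spots by array. No fold was measured for Serpine2, and it was not tested.

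F3, tissue factor (chr3:121726440-121726499, mm8, plus strand), fell in both. In shLoxl2 its ratios were -1.73 and -1.53 in Cy3 and -2.02 and -1.55 in Cy5, with a dye effect of -0.08, so both orientations read alike. The fitted log2 fold change was -1.71 (SE 0.13, limma adjusted p = 0.00212), 3.27-fold lower and rank 60 from the lowest. In shSnail the ratios were -1.28 and -1.09, above all 4 shLoxl2 arrays, and the dye-corrected log2 fold change was -1.10 (SE 0.17, limma adjusted p = 0.00673), or 2.15-fold lower. Without shSnail replicate 1 that value was -1.01 and did not pass (limma adjusted p = 0.0508).

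F3 read nearer 0 on the shSnail than on the shLoxl2 arrays, the opposite order to Serpinb2 and Thbd. The difference of shSnail from shLoxl2 for F3 was 0.60 (SE 0.21, 95% interval 0.06 to 1.15) and did not pass over all probes (limma adjusted p = 0.126). It passed when shLoxl2 replicate 2 was left out (0.83, limma adjusted p = 0.0372).

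Thbd, thrombomodulin (chr2:148095940-148095999, mm8, minus strand), had the lowest shSnail values among the members. In shLoxl2 its ratios were -2.13 and -2.02 in Cy3 and -1.98 and -1.51 in Cy5. The fitted log2 fold change in shLoxl2 was -1.91 (SE 0.13, limma adjusted p = 0.00170), or 3.76-fold lower, a value that averages in an array with a saturated shGFP spot and so may be too small. In shSnail the ratios were -3.80 and -3.53, below all 4 shLoxl2 arrays, and the dye-corrected log2 fold change was -3.83 (SE 0.17, limma adjusted p = 0.000920), 14.3-fold lower and rank 5 from the lowest. The Thbd dye effect, which uses the saturated spot too, was 0.17, and the value without correction was -3.67.

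The shGFP spot of Thbd was saturated on the Cy3 array of shLoxl2 replicate 1, at 65220 against 6754 for the silenced RNA, so its ratio there is a bound and the true fall on that array may be larger. The ratio on the other array of that replicate, with no saturated channel, was -1.98. On the shSnail arrays the intensities were 2028 against 18068 and 2663 against 20196. Thbd was lower in shSnail than in shLoxl2 by -1.92 (SE 0.22, limma adjusted p = 0.0172), or 3.80-fold. Without shSnail replicate 1 the limma adjusted p was 0.0871, and without shSnail replicate 2 it was 0.0834, at values of -1.79 and -2.06, and with centred software ratios the value was -1.74 and did not pass.

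Tfpi2 (chr6:3915439-3915498, mm8, minus strand) was dim in green. That channel was not well above background on any array, and the red channel was on all 6. In shLoxl2 the ratios were -1.03 and -0.06 in Cy3 and 0.43 and 0.09 in Cy5, and in shSnail they were -0.16 and 0.17. The groups overlapped. The log2 fold change was -0.14 in shLoxl2 (SE 0.14, limma adjusted p = 0.560) and -0.39 in shSnail (SE 0.25, limma adjusted p = 0.320), and no direction was settled, since the shSnail value was 0.01 without dye correction. On the shSnail arrays the shGFP channel of this spot was not well above background, so no fold was measured there.

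**Figure D3:**
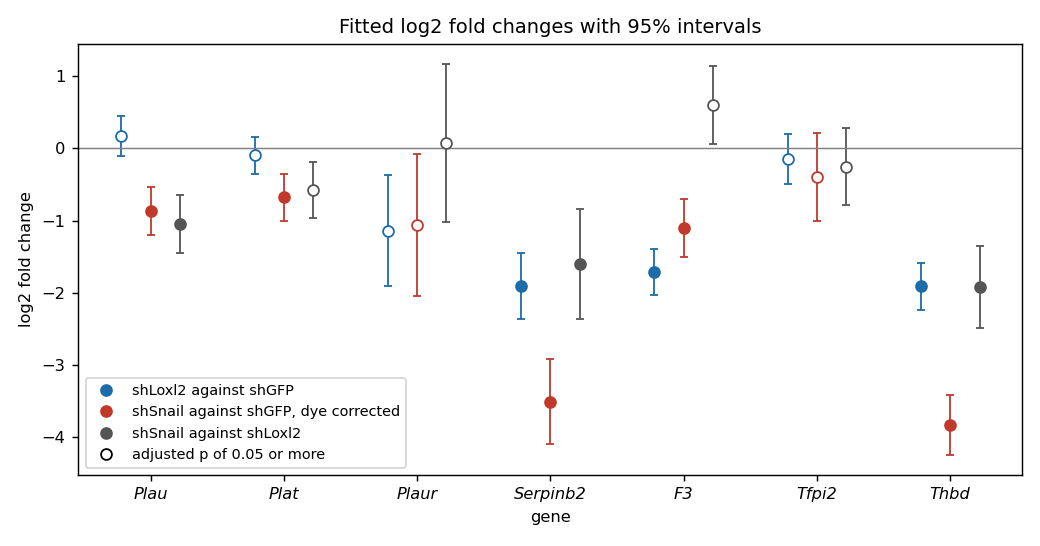
Fitted log2 fold change (vertical axis) with its 95% interval for the 7 tested genes in shLoxl2 against shGFP (blue), shSnail against shGFP after dye correction (red) and shSnail against shLoxl2 (grey); filled circles passed at a limma adjusted p below 0.05. Serpinb2 and Thbd have filled circles below -1.5 in all 3 comparisons, and the grey interval of Plaur runs from -1.02 to 1.18.

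Of the 5 members called lower in shSnail, 4 passed under each of 3 treatments of the dye effect. Between full removal and no correction, the log2 fold change of Serpinb2 moved from -3.51 to -3.01, that of Thbd from -3.83 to -3.67, that of F3 from -1.10 to -1.18 and that of Plat from -0.67 to -0.78. Plau moved from -0.86 to -0.03 and passed under full removal only.

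**Figure D4:**
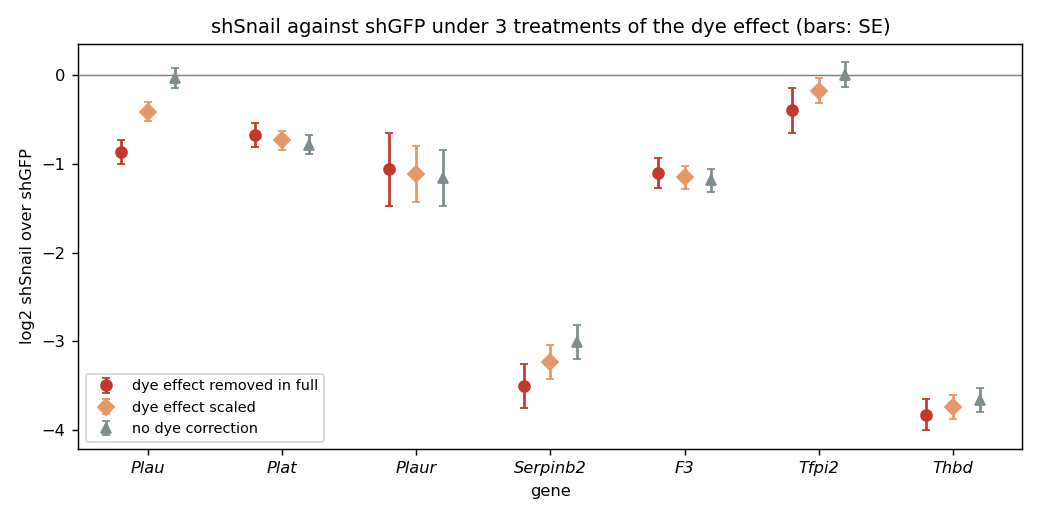
Log2 ratio of shSnail to shGFP (vertical axis) with its SE for the 7 tested genes with the dye effect removed in full (circles), scaled (diamonds) or left in (triangles). Plau moves from -0.86 to -0.03 across the 3 treatments, while Thbd and Serpinb2 stay at or below -3.01.

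Likeness between genes was described over 4 values, the dye-swap averages of shLoxl2 and the dye-corrected shSnail arrays, by the root mean square difference on the log2 scale. Serpinb2 and Thbd were close to each other (0.27), whereas F3 was 1.94 from Thbd and 1.71 from Serpinb2. Among tested named genes outside the members, Ifi202b was the nearest to Serpinb2 (0.27) and to Thbd (0.33). Its values were -2.19 and -1.14 in shLoxl2 and -3.87 and -3.57 in shSnail. Smc4 came next for Serpinb2 (0.52) and Il33 for Thbd (0.59). Nearest to F3 were Klra22 (0.10) and 2810423A18Rik (0.10). These distances carry no test.

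Other genes of the plasminogen system were counted from a list of 19, of which 18 were tested (Klkb1 was not). In shLoxl2, 1 of 18 fell and 2 rose, against 5.83% and 8.01% of all probes, with a median of 0.03; without shLoxl2 replicate 1 these counts were 1 and 0. Mst1, a plasminogen-related growth factor, fell (-1.34). Spint1, a Kunitz-type protease inhibitor (0.80), and Igf2r, a receptor that can bind plasminogen and Plaur (0.57), rose. Each of these rises was no longer called in 7 of 14 other settings. On the 4 shLoxl2 arrays, Spint1 was well above background in shLoxl2 RNA on 3 and in shGFP RNA on 2. In shSnail, 2 of 18 fell and 3 rose, against 12.5% and 8.77%, with a median of 0.07; without shSnail replicate 1 these counts were 0 and 2.

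The genes that fell in shSnail were Lrp1, the endocytic receptor that clears activator and inhibitor complexes (-1.47), and Igf2r (-0.75). The plasminogen receptor Plgrkt (1.88) and S100a10 (1.30), another cell-surface plasminogen binder, rose. Serpini1, neuroserpin, was called higher at 1.24, but it was not well above background in shSnail RNA on either array, and without dye correction it was at -0.64, at least 1.38-fold lower, so its direction was not settled. Between the silenced cells, 3 of 18 were lower in shSnail (Igf2r -1.32, Spint1 -1.03, whose shGFP channel was dim on both shSnail arrays, and Serpinf2 -0.79) and 2 higher (Plgrkt 2.04, Serpini1 1.05), against 8.53% and 4.22%; without background subtraction Serpinf2 was at 0.02. The 3 lower and 2 higher calls fell to 0 when either shSnail replicate was left out.

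Of 28 other coagulation genes, 26 were tested (F8 and Proz were not). In shLoxl2, 1 fell and 0 rose, against 5.83% and 8.01% of all probes, with 1 higher at an unadjusted p below 0.05 by limma. Without shLoxl2 replicate 1 the count lower was 0. In shSnail, 2 fell and 2 rose, against 12.5% and 8.77%, and without either shSnail replicate these counts were 1 and 0. Procr, the endothelial protein C receptor, which presents protein C to the thrombin and thrombomodulin complex, fell in both, by a log2 fold change of -0.79 in shLoxl2 (SE 0.14, limma adjusted p = 0.0187) and -2.26 in shSnail (SE 0.23, limma adjusted p = 0.00194). It was lower in shSnail than in shLoxl2 by -1.47 (limma adjusted p = 0.0347), as Thbd was. F7, the ligand of tissue factor, was called higher in shSnail at 0.97, but its shGFP channel was not well above background on either shSnail array, so this stands as at least 1.48-fold higher, open to dye bias.

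Vkorc1, of the vitamin K cycle, rose in shSnail (0.71). Serpinc1, antithrombin, was called lower there (-0.77), and without dye correction it was at 0.29 (limma adjusted p = 0.133), so its direction was not settled. Between the silenced cells 2 of 26 were lower in shSnail (Procr and Serpinc1 at -0.90) and 1 higher (F7 at 0.80), against 8.53% and 4.22%, and 0 of these passed without either shSnail replicate. Of the 4 thrombin and protease receptors F2r, F2rl1, F2rl2 and F2rl3, 0 passed in any of the 3 comparisons by limma. At an unadjusted p below 0.05 the count was also 0. Over all probes 13.8% were called in shLoxl2, 21.3% in shSnail and 12.8% between the silenced cells. With such shares a count of 0 among 4 genes does not stand out.

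**Figure D5:**
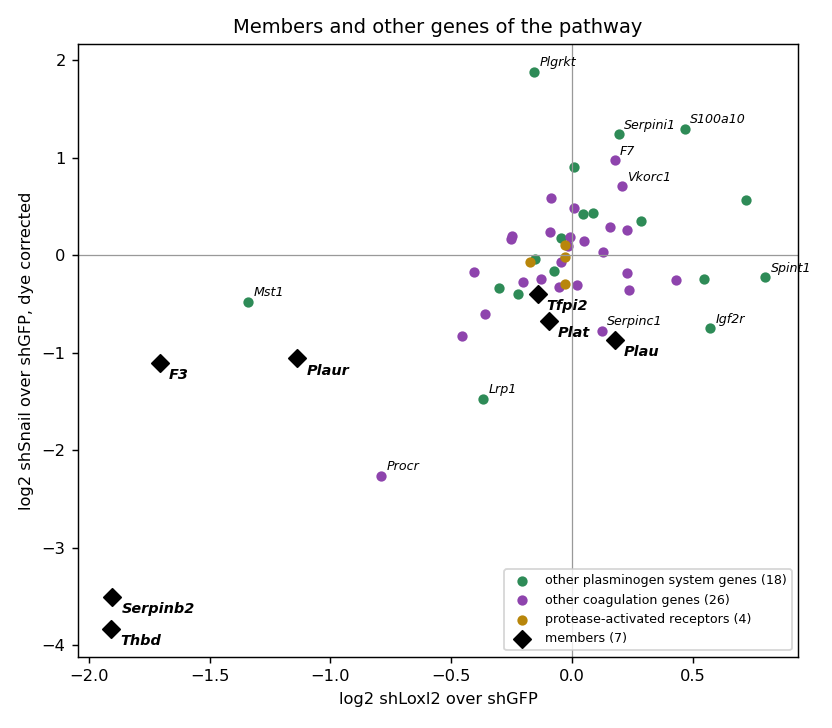
Log2 fold change in shLoxl2 (horizontal axis) and in dye-corrected shSnail (vertical axis), both against shGFP, for the 7 tested members (black diamonds), 18 other plasminogen genes (green), 26 other coagulation genes (purple) and 4 protease-activated receptors (yellow), with list genes named where they passed in either. Serpinb2 and Thbd lie apart at the lower left, with Procr at -0.79 and -2.26 the nearest list gene below -2 in shSnail.

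Several members are known markers or products of other cells, so marker lists were read beside them. Of 5 endothelial markers, 0 were well above background in both channels on all arrays, Tek was in none and Pecam1 was in 1 red channel. Tek and Pecam1 were not tested. Of the others 0 passed in shLoxl2 (Kdr -0.08) or shSnail (Kdr 0.16), against 13.8% and 21.3% of all probes. The summed intensity of the 5 ran from 545 to 617 in shLoxl2 RNA and 565 to 619 in shGFP RNA on the shLoxl2 arrays. On the shSnail arrays it ran from 643 to 705 and from 551 to 692. The sums in silenced and shGFP RNA overlapped in both sets of arrays. Of 4 megakaryocyte and platelet markers, 2 fell in shLoxl2 (Itga2b -0.52, Ppbp -0.71) and 0 in shSnail. Of all probes, 5.83% and 12.5% were lower there. Gp1bb was at 0.51 in shLoxl2 and did not pass (limma adjusted p = 0.114), and Pf4, near background, was not tested. Green was well above background on 3 of 6 arrays for Itga2b, on 2 for Gp1bb and on 6 for Ppbp. Summed intensity of the 4 ran from 932 to 1014 in shLoxl2 RNA and from 940 to 1608 in shGFP RNA. On the shSnail arrays it ran from 2680 to 2681 in shSnail RNA and from 1458 to 1681 in shGFP RNA. The part of these 4 markers in the shLoxl2 values of the members was not tested. Of 6 epithelial markers 3 (Krt5, Krt14 and Krt18) were well above background in both channels on all 6 arrays. In shLoxl2, 2 of the 6 rose (Cdh1 1.08, Epcam 1.51) and 0 fell, against 8.01% and 5.83% of all probes. Green was well above background on 2 of 6 arrays for both, so these values rest partly on a channel near background. Red was well above it on 4 arrays for Cdh1 and on 6 for Epcam. In shSnail 1 rose (Krt8 1.12, with its shGFP channel not well above background) and 1 fell (Krt14 -0.82), against 8.77% and 12.5%. Summed intensity of the 6 epithelial markers was 86394 to 88303 in shSnail RNA, below 132895 to 140144 in shGFP RNA on the same arrays. On the shLoxl2 arrays it was 93329 to 148304 against 100480 to 153947. No marker sum was corrected for dye, and a sum follows its brightest genes. The median dye-corrected log2 fold change of the 6 in shSnail was 0.01. The part of these markers in the values of the members was not tested.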

How the data were processed

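Per the file headers, each array's spots were read with Agilent Feature Extraction 9.5.1.1 (version 6.1.1 per the submitters' processing notes), and the deposited files hold red and green intensity values and log10 ratios of Cy5 over Cy3. The authors' deposited value table holds the same log10 ratios rounded; the column of shSnail replicate 2 repeated that of replicate 1, so the values served only as an alternative. Per the labels, RNA was linearly amplified before labelling.

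From mean intensities and local background medians, normexp (offset 50) and loess were run in limma 3.58.1 (R 4.3.3, data.table version 1.17.8), with 736 control spots and outlier spots at weight 0. Log2 ratios came from these deposited intensities. Spots of a probe were averaged, and probes well above background in 1 channel on at least 2 arrays were tested with lmFit, eBayes and Benjamini-Hochberg adjustment at 0.05. In shLoxl2, swapped arrays were averaged with the sign turned, and the 2 shSnail values shared the estimate of spread. In shSnail, the dye effect of each probe was taken from the shLoxl2 arrays, which also entered its spread. The fit of shSnail against shLoxl2 used the 4 arrays with silenced RNA in Cy5. The fits were tested on simulated data that held the full dye effect on all 6 arrays. The measured shSnail ratios followed that effect with a slope of 0.453, so the simulation could not check the dye correction of shSnail. Names came from RefSeq accessions for 14711 probes (GRCm38.p6) and from the files for 6157; probe positions are those of the files (mm8), and an mm8 annotation was not used here.

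Named genes were the members, Loxl2 and Snai1, and list genes past the threshold (up to 4 in each direction by smallest p). Also named were the 2 nearest genes outside the members by likeness, for members past the threshold at an absolute log2 value of at least 1. An item of the plasminogen list is not reported here. Members and lists were chosen with earlier results of these data known. Leukocyte (5 on the array, Cd68 called higher in shLoxl2, Ptprc not tested) and mesenchymal (5, Fn1 called lower in shSnail) markers were also read. Alternatives covered the background, normalization, filter, dye treatment, replicates and the deposited table.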

Additional observations from a re-analysis of the deposited data

Results flagged for a closer look

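By the direct test, 3 genes differed between the shSnail and shLoxl2 arrays. In shSnail against shLoxl2, on arrays of 1 dye orientation, the log2 difference was -1.04 for Plau (limma adjusted p = 0.0232), -1.60 for Serpinb2 (limma adjusted p = 0.0335) and -1.92 for Thbd (limma adjusted p = 0.0172), with both shSnail arrays below both shLoxl2 arrays for each gene. Scan day was not shared by the groups and cannot be told apart from the hairpin here. As given with each gene above, these calls did not hold when either shSnail replicate was left out. Plau was also the member with the highest dye effect (0.84), its shGFP channel was not well above background on either shLoxl2 array of this comparison, and with the dye effect scaled its difference was -0.58 and did not pass (limma adjusted p = 0.0695).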

How the results depend on the processing

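Lower calls for Serpinb2, F3 and Thbd in shLoxl2 and for Serpinb2 and Thbd in shSnail held under every alternative except the deposited value table, with 1 shSnail array. That table called 0 probes in shLoxl2 and 0 in shSnail by limma, hence 0 members, with 3473 and 5605 probes at an unadjusted p below 0.05. Against 2728 probes called in shLoxl2, there were 774 with the scanner software's log ratios, 833 with these centred, 1508 with an offset of 10, 7624 with the silenced RNA in Cy5 only and 6705 in Cy3 only; leaving out a replicate gave 1733 to 2789. Against 4203 in shSnail, median centring in place of loess gave 8703 and leaving out a replicate 1584 to 1993, with 2 to 4 members lower. Against 2516 in shSnail against shLoxl2, median centring gave 9360, an offset of 10 gave 1019 and leaving out a replicate 39 to 4283, with 0 to 3 members lower and 0 to 1 higher; 1 member was lower with centred software ratios. With the silenced RNA in Cy5 only, 1 member, Plau, was higher in shLoxl2 (1.01). The cause was not tested. Higher calls made up 41.1% of calls in shSnail, 24.2% with software ratios and 53.6% with median centring; in shSnail against shLoxl2 they made up 33.1%, 18.0% and 53.6%. Software ratios shifted the median of all probes to -0.28 in shSnail, and median centring to 0.10.

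Signs turned as follows. Plau in shLoxl2 was -0.028 with software ratios, -0.0072 with these centred, -0.20 with median centring, -0.66 in Cy3 only and -0.028 in the value table. Plat in shLoxl2 was 0.011 in Cy3 only. Tfpi2 in shLoxl2 was 0.016 without replicate 1, -0.30 without replicate 2 and 0.26 in Cy5 only; in shSnail it was 0.23 with median centring and 0.0065 without dye correction, and in shSnail against shLoxl2 0.47 with median centring. Plaur in shSnail against shLoxl2 was -0.0037 without background subtraction, -0.38 with median centring, -0.39 without shLoxl2 replicate 1 -0.38 without shSnail replicate 2 and 0.55 at the other end, without shLoxl2 replicate 2. Serpinf2 in that comparison was 0.015 without background subtraction. Serpinc1 was 0.27 in shSnail and 0.18 in shSnail against shLoxl2 with median centring and 0.29 in shSnail without dye correction, where Serpini1 was -0.64.

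Replicate numbers 1 and 2 were shared by the groups. The same-numbered deviations of the shLoxl2 and shSnail Cy5 arrays correlated at 0.21. A fit with the replicate number as a block called 2709 probes in shSnail against shLoxl2, with 3 members lower. Slide (1 array each) and scan day could not be fitted as blocks, and no member had another probe to try. For shSnail against shGFP, the alternative with all 6 arrays in 1 model with a dye term was added after the data were seen. Dim green signal limits Plau on the shLoxl2 arrays and Tfpi2 on all 6 arrays, and Serpine2 was dim in both channels.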
